A study of Mus musculus with 8 samples.

Results

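The genes described here are 33 markers of the cell cycle and of DNA replication, named with their Ensembl mouse gene IDs. Of these, 31 had a probe set among the 22361 of the liver array table. Ccnb1 and Pcna had no row there, so their expression was not analysed here. Liver expression was measured on 8 Affymetrix arrays, 1 per animal, in female C57BL/6 mice fed a standard diet. Of the mice, 4 received SPC3833, a synthetic antisense oligonucleotide, which pairs with a matching stretch of RNA, at 5 mg/kg per dose, and 4 received saline. Dosing was intravenous, on days 0, 1 and 2. The labels disagree on sampling: the treatment protocol places sacrifice on day 3, whereas the source names and the design text place it 4 days after dosing began and on day 4. The labels used here do not name the target of SPC3833.

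A dividing cell passes through G1, copies its DNA in S phase, and separates the copies in mitosis after G2. Cyclins, which rise and fall through the cycle, switch on cyclin-dependent kinases at each step. Cyclin D1 acts in G1, in answer to growth signals. Cyclins E and A act at and through S phase, and cyclins A and B with CDK1 at mitosis. Most hepatocytes of an adult liver rest outside the cycle and can re-enter it after tissue loss or injury. In whole liver RNA, fewer cells of a type and less RNA per cell cannot be told apart.

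All values below are the deposited log2 expression values, and fold changes are SPC3833 minus saline on the log2 scale. Probe set ENSMUSG00000020609 had the largest fall of the table. Its values were 9.72, 10.02, 9.55 and 9.48 in SPC3833 mice, against 12.45, 12.46, 12.44 and 12.49 in saline mice, so that the 4 arrays of each label stood apart for this gene. The probe set was picked by its fall in this same comparison, so its separation is no independent check of the labels. Array 2 of the SPC3833 group had the highest mean over all probe sets, 5.88, against 5.77 to 5.80 on the other 7 arrays. Calls below rest on limma's moderated test, with Benjamini-Hochberg adjustment over all 22361 probe sets and a threshold of 0.05.

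SPC3833 livers held less Ccnd1 RNA, the transcript of cyclin D1, in all 4 animals, by 2.20-fold on average. No other measured member passed the test in either direction. Of the 31 members, 1 was lower (1.74% of all probe sets were called lower) and 0 were higher (2.33% of all probe sets were called higher). Called members thus made up 3.23%, against 4.07% of the whole table, a share near that background. At an unadjusted p under 0.05, 6 of the 31 members (19.4%) passed, against 17.2% of all probe sets. These were Bub1b, Ccnb2, Mki67 and Mcm3 with higher values (10.9% of all probe sets passed in that direction) and Ccnd1 and Mcm4 with lower values (6.3% of all). The SPC3833 and saline values did not overlap for 3 members (9.68%), Ccnd1, Ccnb2 and Bub1b, against 11.7% of all probe sets. Ccnb2 and Bub1b lay wholly above saline, as did 7.34% of all probe sets, and Ccnd1 wholly below, as did 4.34%.

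As these genes are grouped by when in the cycle they act, the stretches of DNA before their starts were compared as well. The RefSeq promoter table (GRCm38.p6) held 26 of the 33 members. Ccnb1 and Pcna, which had no expression values, were among these 26. Aurkb, Ccna2, Ccnd1, Ccne2, Foxm1, Mcm4 and Tpx2 were not. In the 250 bases before the start, 3 motifs were searched by letters on both strands. The first is CCAAT, the box bound by NF-Y. The second is TTTGAA or TTTAAA, the letters of the cell cycle homology region (CHR), known in promoters of mitotic genes. The third is TTCCCGC or TTGGCGC, 2 forms of the core of an E2F site, known in promoters of replication genes. The 4 members with higher values at an unadjusted p under 0.05 are shown, ordered by that p, with matches to any of the motifs in capitals and no matches overlapping. Each is written 5′ to 3′ along the strand of its gene and ends at the base before the start.
Bub1b (chr2:118597961-118598210, + strand): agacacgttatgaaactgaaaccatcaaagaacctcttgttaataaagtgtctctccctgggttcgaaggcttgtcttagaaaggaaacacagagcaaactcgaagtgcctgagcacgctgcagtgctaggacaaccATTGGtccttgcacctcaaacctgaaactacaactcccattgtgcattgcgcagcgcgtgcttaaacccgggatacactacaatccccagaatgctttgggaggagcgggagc
Ccnb2 (chr9:70421555-70421804, - strand): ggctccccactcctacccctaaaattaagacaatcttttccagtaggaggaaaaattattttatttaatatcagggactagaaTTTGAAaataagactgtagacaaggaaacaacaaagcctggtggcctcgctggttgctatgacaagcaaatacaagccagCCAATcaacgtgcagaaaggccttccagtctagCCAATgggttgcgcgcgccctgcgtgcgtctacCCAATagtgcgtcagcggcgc
Mki67 (chr7:135716380-135716629, - strand): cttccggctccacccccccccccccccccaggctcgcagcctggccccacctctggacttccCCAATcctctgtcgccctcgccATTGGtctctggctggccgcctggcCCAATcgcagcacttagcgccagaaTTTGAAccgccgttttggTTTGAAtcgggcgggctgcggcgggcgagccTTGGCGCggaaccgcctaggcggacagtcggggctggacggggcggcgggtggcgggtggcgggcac
Mcm3 (chr1:20820313-20820562, - strand): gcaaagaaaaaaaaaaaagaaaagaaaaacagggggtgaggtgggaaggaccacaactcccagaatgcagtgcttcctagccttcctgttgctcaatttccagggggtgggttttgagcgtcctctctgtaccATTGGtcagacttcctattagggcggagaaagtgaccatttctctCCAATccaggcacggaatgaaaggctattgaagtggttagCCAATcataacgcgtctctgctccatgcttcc

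The Ccnb2 stretch held 3 CCAAT boxes, beginning 87, 54 and 21 bases before the start, and a TTTGAA 167 bases before it. The Mki67 stretch held matches to all 3 motifs, among them 2 copies of TTTGAA at 116 and 98 bases. Mcm3 had 3 matches to CCAAT and Bub1b had 1, and these stretches held neither of the other motifs. CCAAT was found in 21 of the 26 members (80.8%), against 33.8% of the 32851 windows of the promoter table. At least 2 matches to CCAAT stood in 15 of the members' 27 windows (55.6%), against 10.1% of all windows. The CHR letters were found in 15 of 26 members (57.7%), against 25.2% of all windows, and the E2F letters in 7 of 26 (26.9%), against 5.62%. These counts include the 2 members without expression values: Ccnb1 held all 3 motifs and Pcna held CCAAT only. The E2F match of Ccnb1, beginning 102 bases before the start, shares letters with its CCAAT match at 99 bases. Another CCAAT of Ccnb1 stood at 67 bases. Overlapping matches were not removed from the counts. Mcm7 has 2 windows in the table and counts once in the counts of members. A match is a description of letters and says nothing on binding in these livers.

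Ccnd1 (ENSMUSG00000070348_at) encodes cyclin D1, the partner of CDK4 and CDK6 in G1. Its log2 expression was 6.93, 6.85, 6.54 and 7.12 in SPC3833 mice 1 to 4, against 7.97, 7.78, 8.14 and 8.08 in saline mice 1 to 4. Every SPC3833 value lay below every saline value, with the highest SPC3833 value at 7.12 and the lowest saline value at 7.78. The means were 6.86 ± 0.24 in SPC3833 mice and 7.99 ± 0.16 in saline mice (SD, n = 4 each). The difference of -1.13 on the log2 scale had an SE of 0.127 and a 95% interval of -1.41 to -0.86, with an adjusted p of 0.000785 in limma's test. A two-sided exact permutation test gave p = 0.0286, the lower limit for a design of 4 against 4. Any gene whose groups do not overlap reaches this limit, so it adds nothing to the lack of overlap. Ccnb2 and Bub1b, which were not called, had the same p in that test. Ccnd1 was one of 50 probe sets called at least 2-fold lower (0.224% of the table). Of the 390 probe sets called lower, 38 had a fall at least as large, Ccnd1 included. It passed under all 18 alternative fits.

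The E cyclins drive entry into S phase with CDK2. Ccne1 (ENSMUSG00000002068_at) was at 4.87, 5.02, 5.07 and 5.09 in SPC3833 mice, against 4.84, 4.93, 4.99 and 4.95 in saline mice. The groups overlapped, and the log2 fold change was 0.09 (95% interval -0.10 to 0.27, limma adjusted p = 0.703). Ccne2 (ENSMUSG00000028212_at) was at 2.88, 3.29, 3.04 and 3.03 in SPC3833 mice, against 3.00, 2.94, 2.90 and 3.15 in saline mice, with a log2 fold change of 0.06 (95% interval -0.17 to 0.29). Both intervals lay above that of Ccnd1, whose upper bound was -0.86.

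Ccna2 (ENSMUSG00000027715_at), the cyclin of S phase and G2, was at 4.57, 4.58, 4.46 and 4.54 in SPC3833 mice, against 4.28, 4.62, 4.38 and 4.40 in saline mice. Its groups overlapped, with a log2 fold change of 0.12 (95% interval -0.08 to 0.32). Ccnb2 (ENSMUSG00000032218_at), a mitotic cyclin, was at 4.96, 4.98, 4.74 and 4.72 in SPC3833 mice, against 4.70, 4.57, 4.47 and 4.64 in saline mice. The Ccnb2 groups were barely apart, at 4.72 for the lowest SPC3833 value and 4.70 for the highest saline value. The difference was 0.26 (95% interval 0.05 to 0.47), and Ccnb2 did not pass over the whole table (limma adjusted p = 0.18). Cdk1 (ENSMUSG00000019942_at), the kinase that cyclins A and B switch on for mitosis, was at 5.10, 5.01, 5.21 and 5.16 in SPC3833 mice, against 5.18, 5.16, 4.93 and 4.91 in saline mice. Its groups overlapped, with a log2 fold change of 0.08 (95% interval -0.13 to 0.29).

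**Figure D1:**
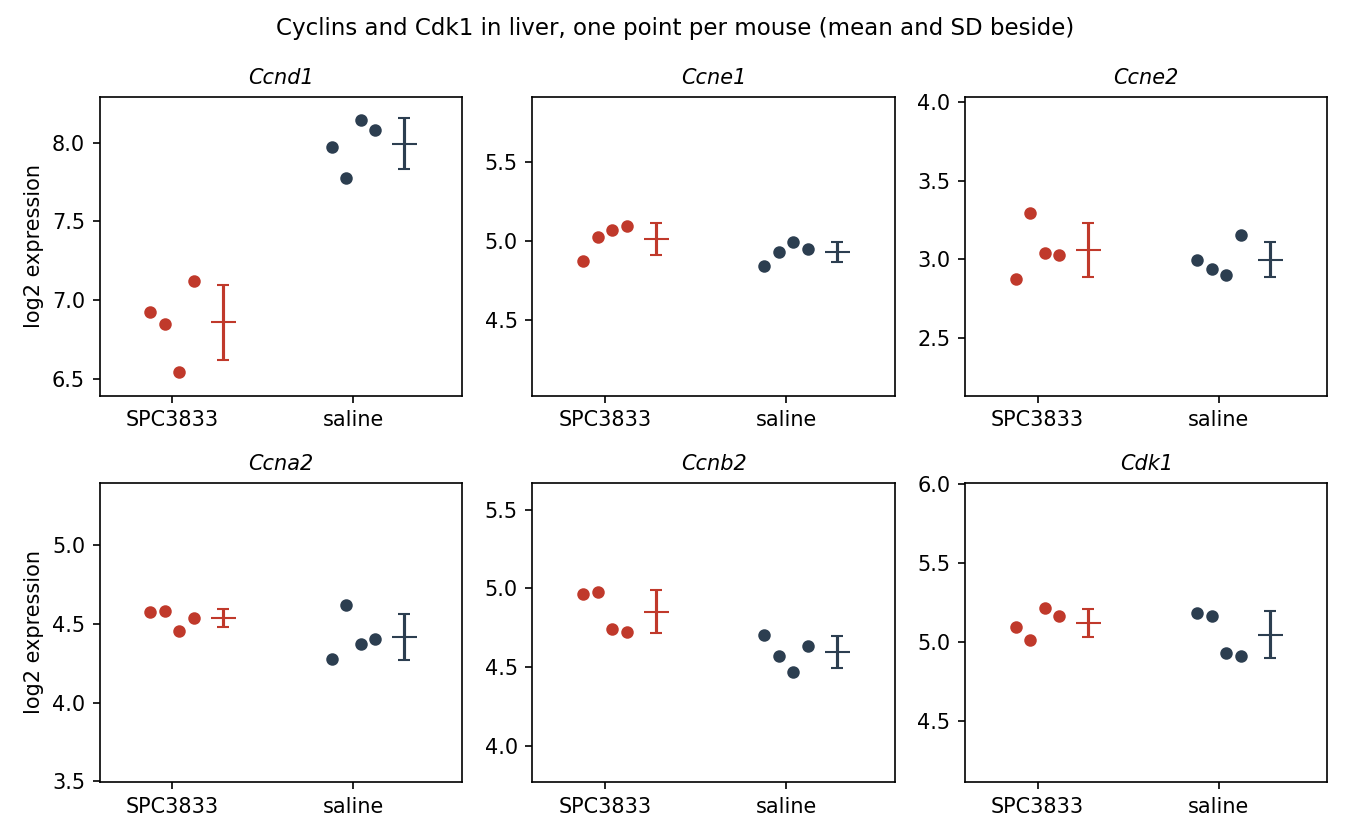
Log2 expression (vertical axes, each spanning the same width) of 5 cyclins and Cdk1 in livers of SPC3833 mice (red, left) and saline mice (dark, right). Each point is 1 mouse, and the bar beside the points gives the mean and SD of 4 mice. The Ccnd1 points of SPC3833 mice lie between 6.54 and 7.12, all below the saline points, which begin at 7.78.

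Mki67 (ENSMUSG00000031004_at) encodes Ki-67, a protein of dividing cells widely used to mark proliferation. Its values were 4.71, 4.56, 4.28 and 4.28 in SPC3833 mice, against 4.16, 4.34, 4.11 and 4.10 in saline mice. SPC3833 mice 1 and 2 lay above all saline mice, while mice 3 and 4 lay below the highest saline mouse. The log2 fold change was 0.28 (SE 0.114, 95% interval 0.03 to 0.53), with an adjusted p of 0.216 in limma's test. Foxm1 (ENSMUSG00000001517_at), the transcription factor that drives genes of G2 and mitosis, was at 4.31, 4.50, 4.60 and 4.68 in SPC3833 mice, against 4.69, 4.60, 4.27 and 4.60 in saline mice. Its log2 fold change was -0.02 (95% interval -0.27 to 0.23), and the groups overlapped over most of their range.

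The MCM proteins 2 to 7 form the ring of the helicase that unwinds DNA at replication origins. None of the 6 genes passed, and the unadjusted p was under 0.05 for Mcm3 and Mcm4, with opposite signs. Mcm3 (ENSMUSG00000041859_at) was at 5.61, 5.94, 5.65 and 5.82 in SPC3833 mice, against 5.35, 5.45, 5.65 and 5.59 in saline mice. Its difference was 0.24 (95% interval 0.02 to 0.47), with limma adjusted p = 0.253, and its groups overlapped between 5.61 and 5.65. Mcm4 (ENSMUSG00000022673_at) was at 5.20, 4.92, 5.14 and 5.31 in SPC3833 mice, against 5.28, 5.40, 5.35 and 5.52 in saline mice. Its difference was -0.24 (95% interval -0.46 to -0.02), with limma adjusted p = 0.236, and only SPC3833 mouse 4 reached into the saline range. The log2 fold changes of Mcm2, Mcm5 and Mcm7 were 0.11, 0.05 and 0.06, and that of Mcm6 was near 0 (95% interval -0.23 to 0.22).

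Rrm1 and Rrm2, the subunits of ribonucleotide reductase, make deoxynucleotides. Tyms makes thymidylate and Tk1 salvages thymidine. None of the 4 passed in either direction. Rrm1 (ENSMUSG00000030978_at) was at 6.02, 6.65, 6.43 and 6.67 in SPC3833 mice, against 6.33, 6.68, 6.77 and 6.58 in saline mice, with a log2 fold change of -0.15 (95% interval -0.47 to 0.18). Tyms (ENSMUSG00000025747_at) was at 5.14, 5.64, 6.09 and 5.69 in SPC3833 mice, against 5.35, 5.08, 5.75 and 5.66 in saline mice, with a log2 fold change of 0.18 (95% interval -0.24 to 0.60). The spread between animals was wide in this role, and SPC3833 mouse 1 held the lowest value of its group for 4 of the 4 genes. Over all 31 members, SPC3833 mice 2 to 4 were lowest for 7, 6 and 8, and mouse 1 was lowest for 10. For Tk1 that mouse was at 6.50, while SPC3833 mice 2 to 4 were at 7.31, 7.38 and 7.10 and saline mice were at 7.08, 7.14, 7.12 and 6.94. The SD of Tk1 was 0.401 in SPC3833 mice and 0.0908 in saline mice (n = 4 each), and its log2 fold change was near 0 (95% interval -0.36 to 0.36). Rrm2 had a log2 fold change of 0.14 (95% interval -0.15 to 0.44). Without SPC3833 mouse 1 the log2 fold change was 0.19 for Tk1, -0.0052 for Rrm1, 0.35 for Tyms and 0.24 for Rrm2, and none of the 4 passed (limma adjusted p of at least 0.357). As that mouse was the lowest of its group for each of these genes, leaving it out could only raise their log2 fold changes.

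**Figure D2:**
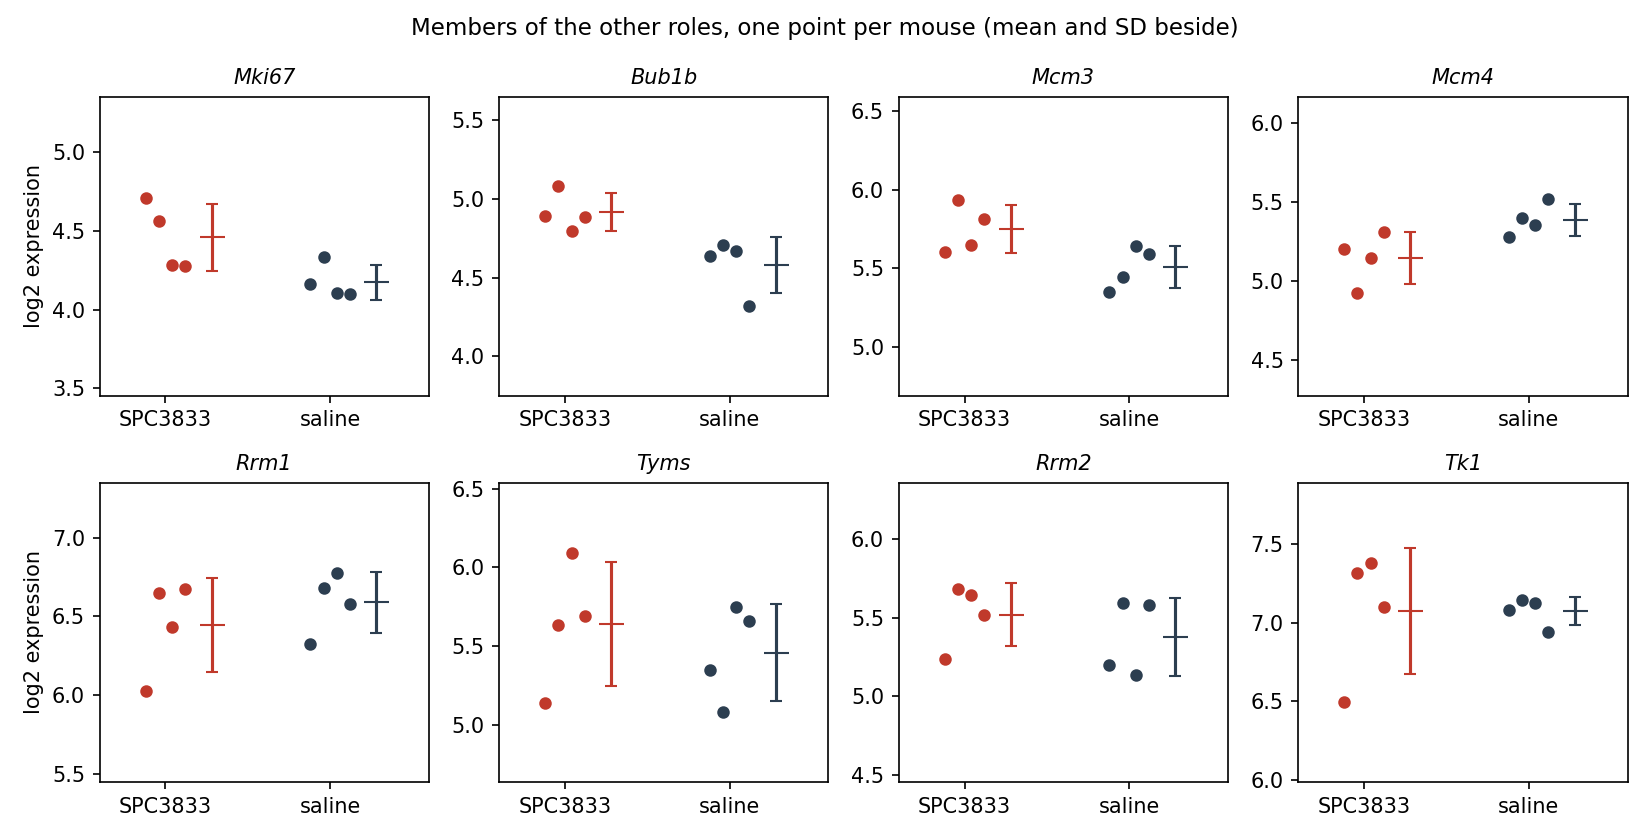
Log2 expression (vertical axes, each spanning the same width) in SPC3833 mice (red, left) and saline mice (dark, right), 1 point per mouse with the mean and SD of 4 mice beside it. The upper row holds the 4 members outside the cyclins with an unadjusted p under 0.05 and the lower row the nucleotide supply genes, for which SPC3833 mouse 1, the leftmost red point, is the lowest of its group.

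The mitotic kinases, the spindle checkpoint and the anaphase-promoting complex (APC/C) were represented by 8 genes, none of which passed. Bub1b (ENSMUSG00000040084_at) encodes BubR1, which holds back anaphase until chromosomes are attached. It was at 4.89, 5.08, 4.79 and 4.89 in SPC3833 mice, against 4.64, 4.71, 4.67 and 4.32 in saline mice. Every SPC3833 value lay above every saline value, with 4.79 as the lowest in SPC3833 mice and 4.71 as the highest in saline mice. Bub1b had the largest positive log2 fold change of the members, 0.33 (SE 0.107, 95% interval 0.10 to 0.56), and did not pass (limma adjusted p = 0.116). Its adjusted p ranged from 0.0746 to 0.367 over the 17 alternative fits that tested it.

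Birc5 (ENSMUSG00000017716_at) encodes survivin, a subunit of the chromosomal passenger complex around Aurora B. It was at 5.31, 5.51, 5.40 and 5.25 in SPC3833 mice, against 5.39, 4.99, 5.15 and 5.22 in saline mice, with a log2 fold change of 0.18 (95% interval -0.05 to 0.41). Aurkb, the kinase of that complex, had 0.12. Ube2c and Cdc20, an ubiquitin-conjugating enzyme and an activator of the APC/C, had log2 fold changes of 0.08 and -0.08. The kinases Aurka, Bub1 and Plk1 had log2 fold changes of 0.05, 0.05 and -0.01.

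Of the 5 genes of the spindle and the chromosomes, 0 passed in limma's test, 0 had an unadjusted p under 0.05, and the smallest adjusted p was 0.672. Top2a (ENSMUSG00000020914_at), the topoisomerase that untangles DNA in dividing cells, was at 4.03, 3.83, 3.97 and 4.22 in SPC3833 mice, against 3.55, 4.11, 4.09 and 3.70 in saline mice. Its log2 fold change was 0.15 (95% interval -0.15 to 0.46). Tpx2 (ENSMUSG00000027469_at), which brings Aurora A to the spindle, was at 4.92, 4.56, 4.62 and 4.38 in SPC3833 mice, against 4.52, 4.41, 4.55 and 4.66 in saline mice, with a log2 fold change of 0.08 (95% interval -0.17 to 0.33). The groups overlapped for both genes. The spindle motor Kif11, the microtubule binder Nusap1 and the kinetochore protein Cenpf had log2 fold changes of -0.02, -0.03 and -0.05.

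A p that misses the threshold does not show that a gene did not change, so the intervals are given as bounds on the change in array signal. Most members were dim, as given below, and how far low signal hides larger changes in RNA was not tested. The log2 fold changes of the 30 members that were not called ran from -0.24 to 0.33, and their adjusted p was at least 0.116. The 95% interval lay within a 1.5-fold change in both directions for 29 of the 30, and within a 2-fold change for all 30. The exception at 1.5-fold was Tyms, with an upper bound of 0.60. The intervals of these 30 genes reached no lower than -0.47, above the whole interval of Ccnd1. The median half-width of the interval was 0.23 for the members and 0.23 for all probe sets.

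**Figure D3:**
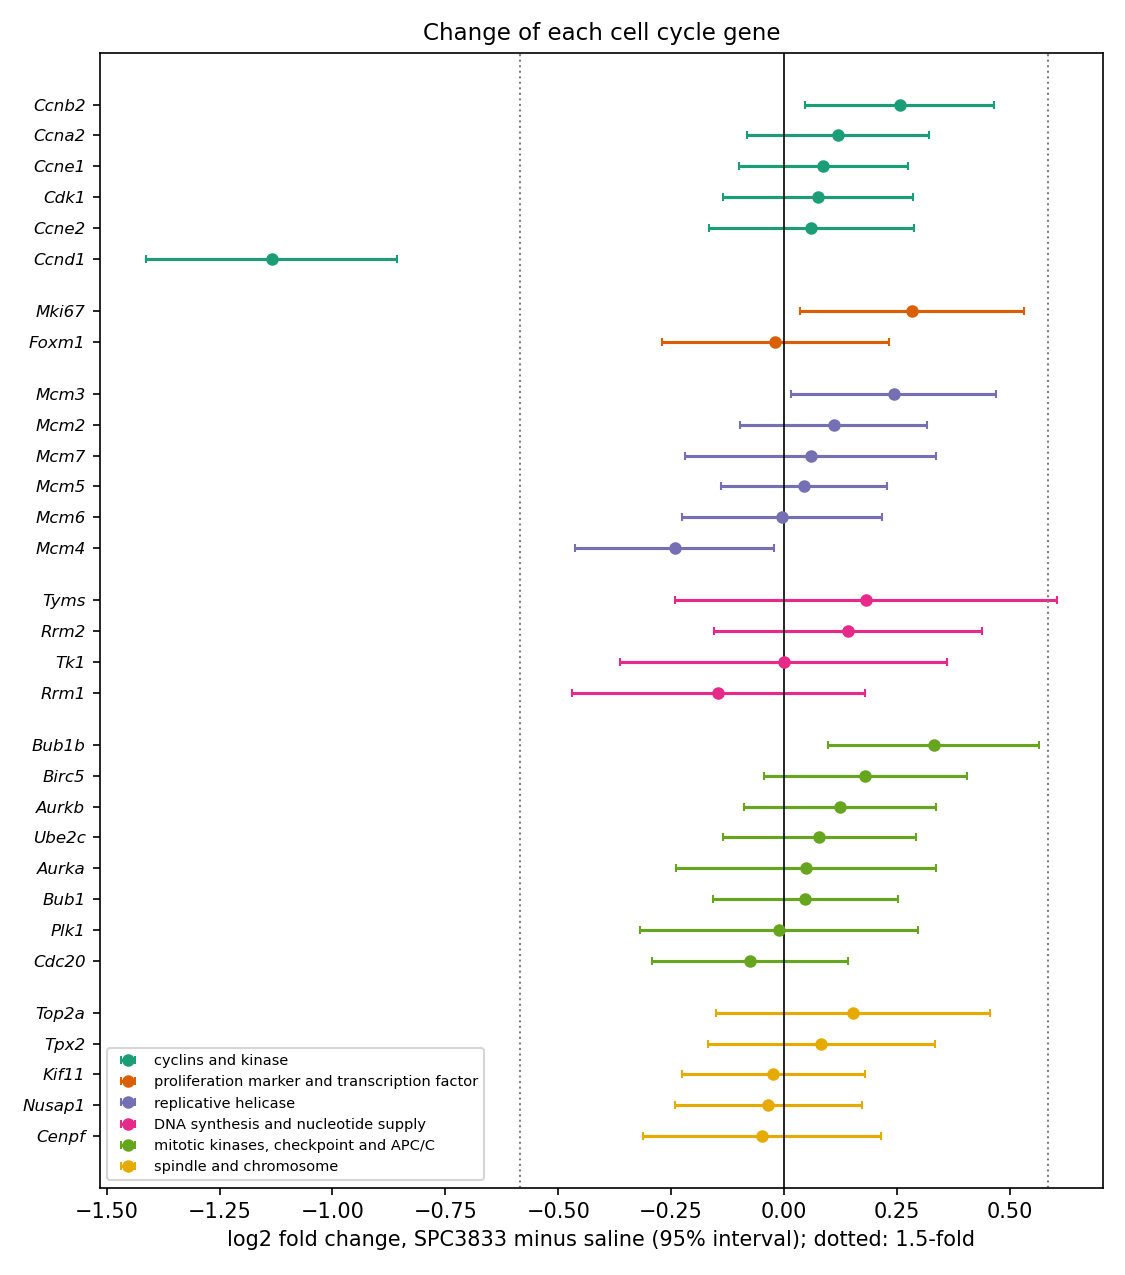
Log2 fold change, SPC3833 minus saline, with its 95% interval (horizontal axis) for each of the 31 members (rows, coloured and grouped by role). The dotted lines mark a 1.5-fold change in either direction. Ccnd1, at -1.13, stands left of every other interval, and of the others the interval of Tyms crosses a dotted line.

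Small differences above 0 were more frequent than below. The log2 fold change was above 0 for 20 of the 31 members (64.5%), against 58.9% of all probe sets, and its median was 0.06 for the members and 0.03 for all. The median of its absolute value was 0.08 for the members and 0.10 for all probe sets. Relative to each gene's saline mean, the median member stood at 0.02, 0.11, 0.11 and 0.08 in SPC3833 mice 1 to 4, and at -0.02, 0.05, 0.02 and -0.01 in saline mice 1 to 4. The same median over all probe sets was 0.03, 0.10, 0.02 and -0.03 in SPC3833 mice 1 to 4. SPC3833 mouse 2, whose array was the brightest as a whole, held the highest value of its group for 12 of the 31 members. SPC3833 mice 1, 3 and 4 did so for 6, 5 and 8. The same count was not taken over all probe sets, so it is not known whether 12 is particular to the members. Centred on each array's median, the median log2 fold change was 0.02 for the members and -0.01 for all probe sets.

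**Figure D4:**
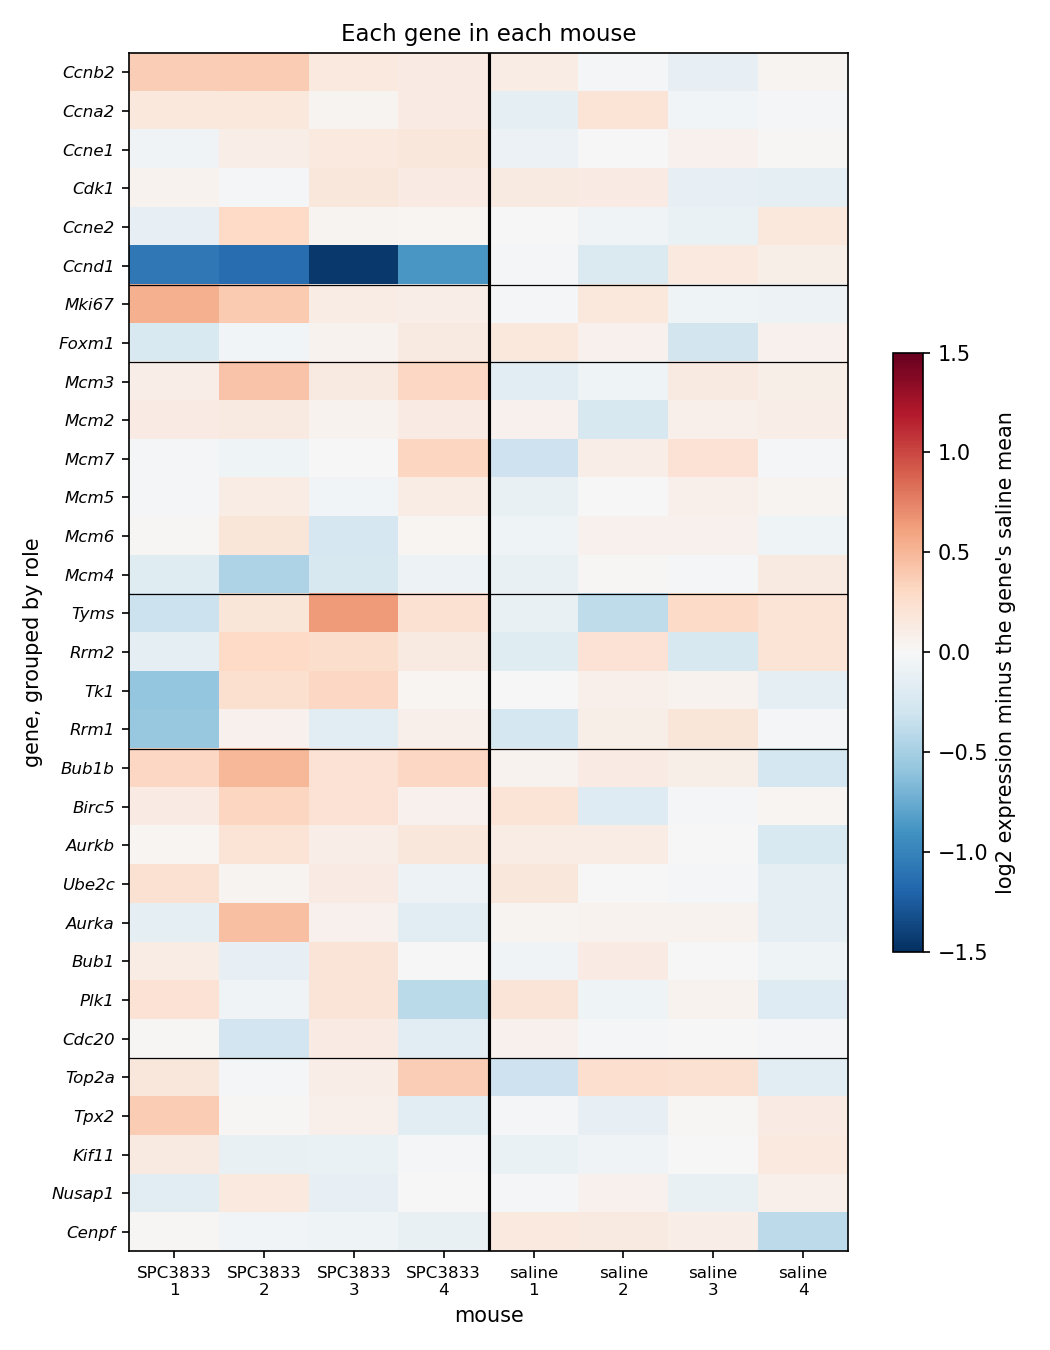
Difference of each mouse (columns) from the saline mean of each gene (rows, grouped by role) in log2 units, with red above and blue below that mean. SPC3833 mice are left of the black line and saline mice right of it. The Ccnd1 row is dark blue in all 4 SPC3833 mice, and SPC3833 mouse 1 is blue for Tyms, Rrm2, Tk1 and Rrm1.

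Most members were dim on the array. The mean signal was below that of the median probe set for 25 of the 31 members and within the dimmest 25% for 9. This ranks probe sets by brightness, which also depends on their probes, and compares no transcript amounts. Calls were rarer among dim probe sets: 0.411% of the dimmest 25% of the table were called, 1.22% of the next 25%, 4.28% of the 25% above those and 10.4% of the brightest 25%. The members fell into these bands as 9, 16, 4 and 2 genes, and those in the brightest band were Ccnd1 and Tk1. The median SE of a log2 fold change was 0.104 for the 9 dimmest members and 0.115 for all probe sets of that band. In the next band it was 0.102 for the members and 0.106 for all. The members' median SE was the larger in the 2 brighter bands, at 0.111 against 0.101 and at 0.146 against 0.103. How far low signal hides changes of these genes was not tested.

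**Figure D5:**
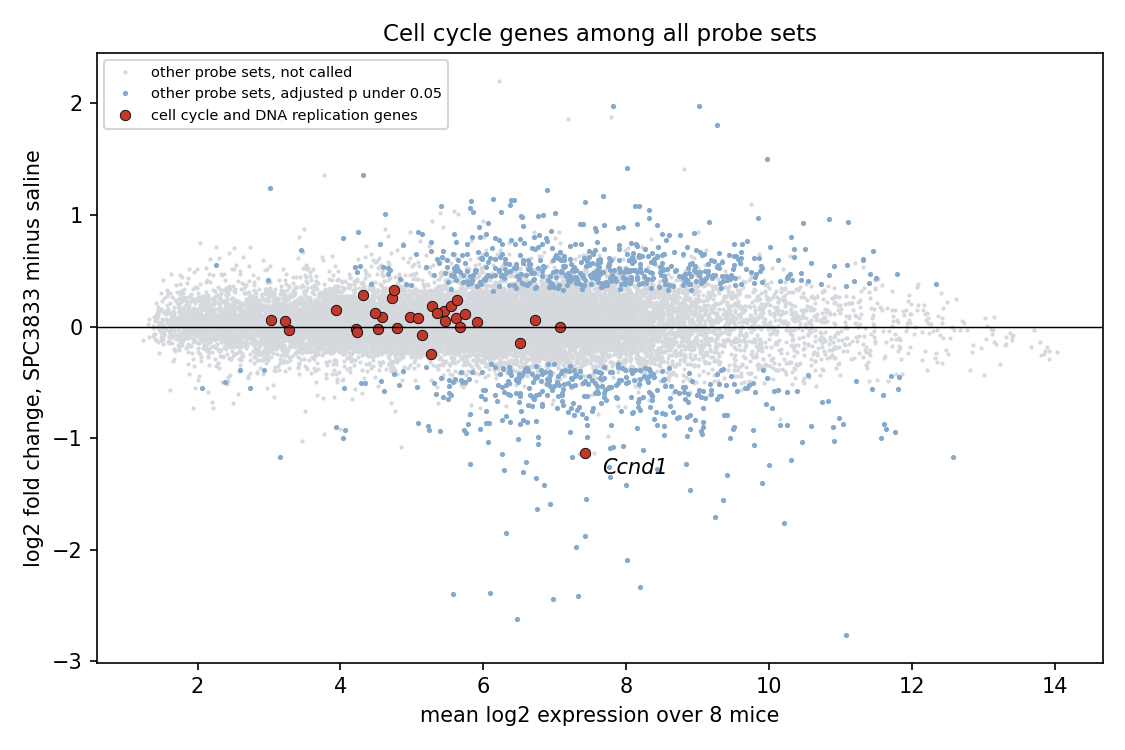
Log2 fold change, SPC3833 minus saline (vertical axis), against the mean log2 expression of the 8 mice (horizontal axis) for all 22361 probe sets. Cell cycle and DNA replication genes are red circles, other called probe sets blue and the rest grey. Of the 31 circles, 30 lie between -0.24 and 0.33, and Ccnd1 lies at -1.13.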

How the data were processed

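Total liver RNA was amplified, labelled with biotin and hybridised to Affymetrix arrays, per the labels' protocols. The table deposited by the authors holds log2 values of 22361 probe sets, 1 per Ensembl mouse gene ID, on 8 arrays. The log2 scale was read from the range of the values. Per the submitters' processing notes, affy was used. Background correction, normalization and build are not given in the sources used here.

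Groups come from the titles, which name biological replicates. The comparison used limma 3.58.1 (lmFit, then eBayes with no intensity trend, two-sided; R 4.3.3) on all probe sets, with no filter or covariate. The fit was tested on simulated data. Intervals are 95% intervals of the moderated fit, and 4 arrays per group limit the precision. Exact permutation tests ran over the 70 assignments of the 8 arrays.

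The members and lists were chosen with earlier results of these data known. Their symbols came with the IDs. The tables used here pair no other Ensembl ID with a symbol, so the planned lists of other cell cycle genes and of cell type markers, liver identity included, were not analysed here. The rule for named genes gave array values for called members, cyclins, Cdk1, Mki67 and Top2a, and in each other role for the 2 members with the largest absolute change. Tk1 was added after its values were seen. Alternatives were other scalings, filters on dim probe sets, array weights, robust variances or a variance trend with intensity, a block for the replicate number, fits with arrays left out, and other thresholds.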

Additional observations from a re-analysis of the deposited data

Results flagged for a closer look

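Among the 62 sets of 4 values (31 members in 2 groups), 4 held an array set apart from the other 3 by Dixon's test, and chance gives about 1 in 20. Mcm7 was at 7.02 on SPC3833 array 4, above the 6.63 to 6.68 of the other SPC3833 arrays. The other 3 were low values in saline mice. Aurka was at 5.30 on saline array 4, below 5.48 to 5.49 on the others. Cenpf was at 3.86 on the same array, below 4.35 to 4.40. Mcm2 was at 5.45 on saline array 2, below 5.75 to 5.79. None of these 4 genes was called in limma's test with all arrays (adjusted p of 0.649 to 0.925) or in any alternative fit that tested it.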

How the results depend on the processing

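Ccnd1 was lower and passed in all 18 alternative fits, with log2 fold changes of -1.26 to -1.03 and adjusted p of 0.000168 to 0.00488. It was also the 1 member called, with 0 higher, in each fit and at adjusted p under 0.1 and under 0.01. Leaving out the arrays in turn gave 1 lower and 0 higher throughout. A fit without SPC3833 arrays 2 and 4 was chosen after seeing the data.

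Over all probe sets, 911 changed, 1552 with only those above the median signal, 545 without SPC3833 arrays 2 and 4, 1582 at adjusted p under 0.1, 296 at adjusted p under 0.01, and 467 to 967 when 1 array was left out. Some of these fits held fewer probe sets or arrays. The cause of the different counts was not tested. The split of calls moved with the scaling: 521 higher and 390 lower as deposited, against 454 and 612 with quantile normalization, 276 and 487 with arrays centred on their median, and 439 and 531 with arrays centred on their 75th percentile.

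The sign of 17 of the 31 members was the same in every fit that tested them. With all arrays and the deposited values, the log2 fold changes of the 14 others were at most 0.082 in size, and they were called in no fit. Without SPC3833 arrays 2 and 4, the log2 fold change turned to -0.041 for Ccne2, 0.070 for Cdc20, -0.040 for Aurka, 0.21 for Plk1, -0.026 for Mcm5, -0.014 for Mcm7 and 0.016 for Kif11. With array weights Plk1 was at 0.057. With 1 array left out the ranges across 0 were -0.017 to 0.12 for Ccne2, -0.085 to 0.12 for Aurka, -0.0021 to 0.10 for Bub1, -0.087 to 0.12 for Plk1, -0.065 to 0.077 for Mcm6, -0.042 to 0.13 for Mcm7, -0.10 to 0.19 for Tk1, -0.077 to 0.025 for Kif11, -0.095 to 0.010 for Nusap1, -0.11 to 0.050 for Foxm1, -0.18 to 0.0016 for Cenpf and -0.017 to 0.16 for Tpx2.

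No pairing of same-numbered arrays was assumed. Their deviations correlated, across probe sets, at 0.16, 0.043, -0.030 and 0.14. Differently numbered arrays were not compared in this way, so these values cannot show whether the arrays were paired. With the replicate block 856 probe sets changed and Ccnd1 remained the 1 member called, at -1.13 (adjusted p = 0.00332). The filter on the median signal tested 6 members and that on the 25th percentile 22. No raw signal or background was used here, so its limits could not be set.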
